A study of Mus musculus with 59 samples.

Results

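NRF2 (gene Nfe2l2) and 8 genes known as its antioxidant targets were followed across 3 tissues of mice gavaged with benzo(b)fluoranthene (BbF), a polycyclic aromatic hydrocarbon. The 9 genes, Nfe2l2, Nqo1, Gclc, Gclm, Slc7a11, Txnrd1, Srxn1, Hmox1 and Osgin1, were chosen by name as known members of this response, with earlier results of these data known. All probes whose accession maps to their symbols were used, which gave 10 of the 55681 probes, or 9 of the 37163 genes and transcripts on the array. Hmox1 has 2 probes, and its brighter probe stands for it unless the other is named.

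The animals were male Muta™Mouse of about 16 weeks, a transgenic strain that carries a bacterial reporter for mutation assays in every group, the controls included. They received olive oil alone (vehicle) or BbF in olive oil by oral gavage at 25 (low), 50 (medium) or 100 (high) mg/kg-bw/day for 28 days, and lung, liver and forestomach were taken 72 h after the last dose. The labels disagree on the compound, since the titles and the treatment protocol give BbF while an exposure label and the design text give benz(a)anthracene; BbF is used here. Mice 1 to 5 had vehicle, 6 to 10 the low, 11 to 15 the medium and 16 to 20 the high dose, with 1 array per mouse and tissue; low-dose lung has 4 arrays and every other group 5, 59 in all. Every value is log2(Cy5/Cy3), tissue RNA in Cy5 over a universal mouse reference RNA from cell lines in Cy3, so that 0 means the level of that reference and levels of different probes cannot be set against each other.

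NRF2 is a transcription factor that is held back and marked for degradation by KEAP1 until electrophiles or oxidants modify KEAP1. It then enters the nucleus, pairs with small MAF proteins and binds antioxidant response elements (AREs) near genes of glutathione synthesis, thioredoxin recycling, quinone reduction and haem breakdown. Because NRF2 is set largely by protein stability, its mRNA is an indirect reading of it. In tissues exposed to polycyclic aromatic hydrocarbons, NRF2 targets are of interest because these compounds can be turned into quinones that redox cycle, and because Nqo1 is also a target of the aryl hydrocarbon receptor (AhR), whose own best known targets are Cyp1a1 and Cyp1b1. In bulk tissue, fewer cells of a type and less RNA per cell cannot be told apart.

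The element itself is shown first, as the sequence that NRF2 binds, although the genes were chosen by name and not by it. RefSeq promoter windows (GRCm38.p6, 250 bases before to 50 after a transcription start) were at hand for 7 of the 9 genes, in 9 windows, 3 of them for Txnrd1. The ARE core was searched as TGACNNNGC and its variant TGAGNNNGC on both strands, and at least 1 of these was in 6 of the 9 windows, those of Nfe2l2, Gclm, Slc7a11, Txnrd1, Srxn1 and Osgin1. Of all 32851 promoter windows, 12.4% hold the first form, 17.6% the second and 27.8% either. The matches before the start are printed 5′ to 3′ along the gene's strand, with the core in capitals, which reads as its reverse complement where it lies on the other strand.
Nfe2l2, minus strand, chr2:75704885-75704913: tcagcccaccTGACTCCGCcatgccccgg
Gclm, plus strand, chr3:122245413-122245441: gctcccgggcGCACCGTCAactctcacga
Slc7a11, minus strand, chr3:50443692-50443720: taatgttggcGCTTTCTCAagctggagtt
Txnrd1, plus strand, chr10:82859104-82859132: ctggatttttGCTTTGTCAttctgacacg
Srxn1, plus strand, distal, chr2:152105356-152105384: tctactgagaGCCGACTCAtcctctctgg
Srxn1, plus strand, proximal, chr2:152105469-152105497: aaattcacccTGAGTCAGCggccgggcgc
Osgin1, plus strand, chr8:119437038-119437066: aggggcccctGCTGACTCAcgcttatgaa
The proximal Srxn1 core and the Osgin1 core overlap an AP-1 motif (TGANTCA, in 7.81% of all windows). The Nqo1 window (chr8:107403156-107403455) holds neither ARE form, no AP-1 motif and no AhR core GCGTG, which is in 32.4% of all windows, and that says only that these letters are not within this stretch. GCGTG was in the windows of Gclm, Srxn1 and Osgin1 and in all 3 of Txnrd1, and not in those of Nfe2l2 and Slc7a11. In Osgin1 it overlaps the ARE core. A match is a stretch of letters and not a measured binding site.

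The arrays were examined before the genes. Sftpc marked all lung arrays, Alb and Apoa2 all liver arrays with a value, and Krt13 and Krt4 all forestomach arrays. Scgb1a1, the other lung marker, ran from 7.84 to 8.41 in lung. It was also well above background on all forestomach arrays, at 4.30 to 5.46. On 1 low-dose lung array, that of mouse 6, Krt13 (4.17) and Krt4 (5.73) were at or near forestomach levels, and the forestomach arrays of mice 7, 12 and 15 had the highest Alb there (3.41, 4.79 and 4.30). On the third liver slide, which holds 8 arrays of all 4 dose groups, 10.75% to 12.93% of probes were well above background, against 37.06% to 46.16% on the other 2 liver slides. The lung of vehicle mouse 2 had Cyp1a1 at 8.39, in the range of the high-dose lungs (5.99 to 9.38). The same mouse had the highest vehicle Cyp1a1 in liver (2.84, the others at most 0.72) and in forestomach (4.39, the others at most 1.85). Of the 9 genes, 5 (Gclc, Nfe2l2, Osgin1, Srxn1 and Txnrd1) were well above background on all 59 arrays. Slc7a11 was so on 2 of 19 lung, 1 of 20 liver and all 20 forestomach arrays, so its dose estimates in lung and liver are neither given nor plotted, and medians there are over the other 8 genes.

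Without exposure the 9 genes differed widely between the tissues. A gene was called where limma's p, adjusted by Benjamini-Hochberg over all probes, was at most 0.05 and the difference at least 1.5-fold. By it, 8 of 9 genes differed between vehicle lung and forestomach, where 19.8% of all probes did; 7 of 9 between liver and forestomach, where 19.3% did; and 6 of 9 between lung and liver, where 24.1% did. Each slide held 1 tissue, so slide and tissue cannot be told apart in these levels. With median centring in place of loess none of the 9 was called between lung and liver, where 10.3% of all probes were, and 4 between liver and forestomach, where 7.38% were, and 8 between lung and forestomach, where 17.6% were. Nqo1 between lung and liver and Txnrd1 between liver and forestomach, neither of them called, then changed sign.

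Nfe2l2 itself was highest in forestomach, where the 5 vehicle mice lay between 2.07 and 2.80, lower in lung (0.90 to 1.42) and lowest in liver (-0.61 to -0.03). The 3 ranges did not overlap. The lung mean of 1.15 ± 0.22 (SD, n = 5) was below the forestomach mean of 2.43 ± 0.31 by 2.44-fold (limma adjusted p = 1.26e-05) and above the liver mean of -0.25 ± 0.23 by 2.64-fold (adjusted p = 5.53e-06). With median centring the difference between lung and liver was not called (1.48 on the log2 scale, adjusted p = 0.300).

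Nqo1, which reduces quinones by transfer of a pair of electrons, Hmox1, which opens the haem ring, and Slc7a11, the cystine carrier of the glutathione supply, were likewise highest in forestomach. Nqo1 was at 3.32, 1.85, 1.82, 2.56 and 2.05 in the forestomach of vehicle mice 1 to 5, and at -1.41, -0.84, -1.47, -0.85 and -1.39 in their lungs. In liver the same mice gave -1.66, -1.63, -1.32, -1.33 and 1.34, the last from mouse 5 on the third, dim slide. Forestomach therefore exceeded both other tissues, by 11.4-fold over lung (adjusted p = 2.02e-07) and 9.47-fold over liver (adjusted p = 0.000918). Lung and liver could not be ordered: the difference was -0.27 on the log2 scale with a 95% interval from -1.37 to 0.83, and it turned to 0.30 without the third liver slide.

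Hmox1 ranged from 0.53 to 1.40 in vehicle forestomach and from -1.61 to -1.34 in lung, a 5.80-fold difference (adjusted p = 1.18e-08). In liver, mice 1 to 4 lay between -2.65 and -2.19 and mouse 5 at -0.93, where the probe was not well above background. Over all 5 mice lung exceeded liver by 0.63 on the log2 scale without passing the test (adjusted p = 0.0866), and without mouse 5 by 0.93 (adjusted p = 3.03e-06). The dimmer Hmox1 probe gave the opposite order, with lung below liver by 0.58 (adjusted p = 0.0227, under 1.5-fold), so that the order of these 2 tissues depends on the probe. That probe kept forestomach above lung with a smaller gap, at -0.35 to 0.32 against -1.74 to -1.39. Slc7a11 was at 0.51 to 1.45 in forestomach and at or below -0.12 in both other tissues, where it was well above background in 1 of 5 vehicle mice each.

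The subunits of glutamate-cysteine ligase, the enzyme that sets the rate of glutathione synthesis, and Osgin1, a growth inhibitor induced by oxidative stress, were highest in liver. Gclc, the catalytic subunit, was at 2.88, 3.07, 3.11, 3.11 and 1.74 in the livers of vehicle mice 1 to 5. Its lung values ran from 1.11 to 1.99 and its forestomach values from -0.07 to 1.60, so that lung overlapped forestomach and, through mouse 5, liver, while liver and forestomach did not overlap. Liver exceeded lung by 2.26-fold (adjusted p = 0.00586) and forestomach by 4.08-fold (adjusted p = 0.000737). Lung exceeded forestomach by 1.80-fold (adjusted p = 0.0285), a call lost without mouse 2 (adjusted p = 0.117) or mouse 4 (adjusted p = 0.0852) and with median centring (0.66 on the log2 scale, adjusted p = 0.132).

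Gclm, the modifier subunit, was at 2.17, 1.99, 2.53, 2.11 and 0.54 in vehicle liver, between 0.36 and 0.89 in forestomach and between -0.83 and -0.25 in lung. Liver was 5.07-fold above lung (adjusted p = 8.43e-05) and 2.42-fold above forestomach (adjusted p = 0.00892), where mouse 5 fell inside the forestomach range and the call was lost without mouse 2 (adjusted p = 0.0513). Osgin1 separated the tissues most among the genes highest in liver, with 2.98, 3.58, 3.52, 3.78 and 2.15 in liver against 0.68 to 1.04 in forestomach and -0.39 to 0.27 in lung. Liver exceeded lung by 10.0-fold (adjusted p = 1.92e-06) and forestomach by 5.07-fold (adjusted p = 4.88e-05). With median centring Gclc, Gclm and Osgin1 kept these directions, but none of their calls of liver above another tissue remained. Against lung the limma adjusted p was then 0.639, 0.0889 and 0.0634 in that order, and against forestomach 0.420, 0.461 and 0.256.

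Srxn1, the sulfiredoxin that repairs overoxidized peroxiredoxins, and Txnrd1, the cytosolic thioredoxin reductase, varied less. Srxn1 was lowest in lung (-0.90 to -0.66), near 0 in liver (-0.06 to 0.08) and higher in forestomach (0.18 to 0.72), and no range overlapped another. Lung lay below liver by 1.71-fold (adjusted p = 3.54e-06) and below forestomach by 2.21-fold (adjusted p = 1.16e-06), while liver and forestomach differed by 1.29-fold (adjusted p = 0.0159), under the 1.5-fold limit. Txnrd1 in lung (-1.14 to -0.81) was 1.57-fold below liver (-0.52 to -0.18; adjusted p = 0.000132). It was 1.38-fold below forestomach (-0.94 to -0.19; adjusted p = 0.0183), again under the limit, though with median centring this difference was called (-0.59 on the log2 scale, adjusted p = 0.0234). Liver and forestomach overlapped for Txnrd1 (adjusted p = 0.405). The calls of lung below liver were lost with median centring for Srxn1 (-0.54 on the log2 scale, adjusted p = 0.776) and Txnrd1 (-0.45, adjusted p = 0.828). With the authors' values Txnrd1 was also not called there, at -0.52 and under 1.5-fold.

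**Figure D1:**
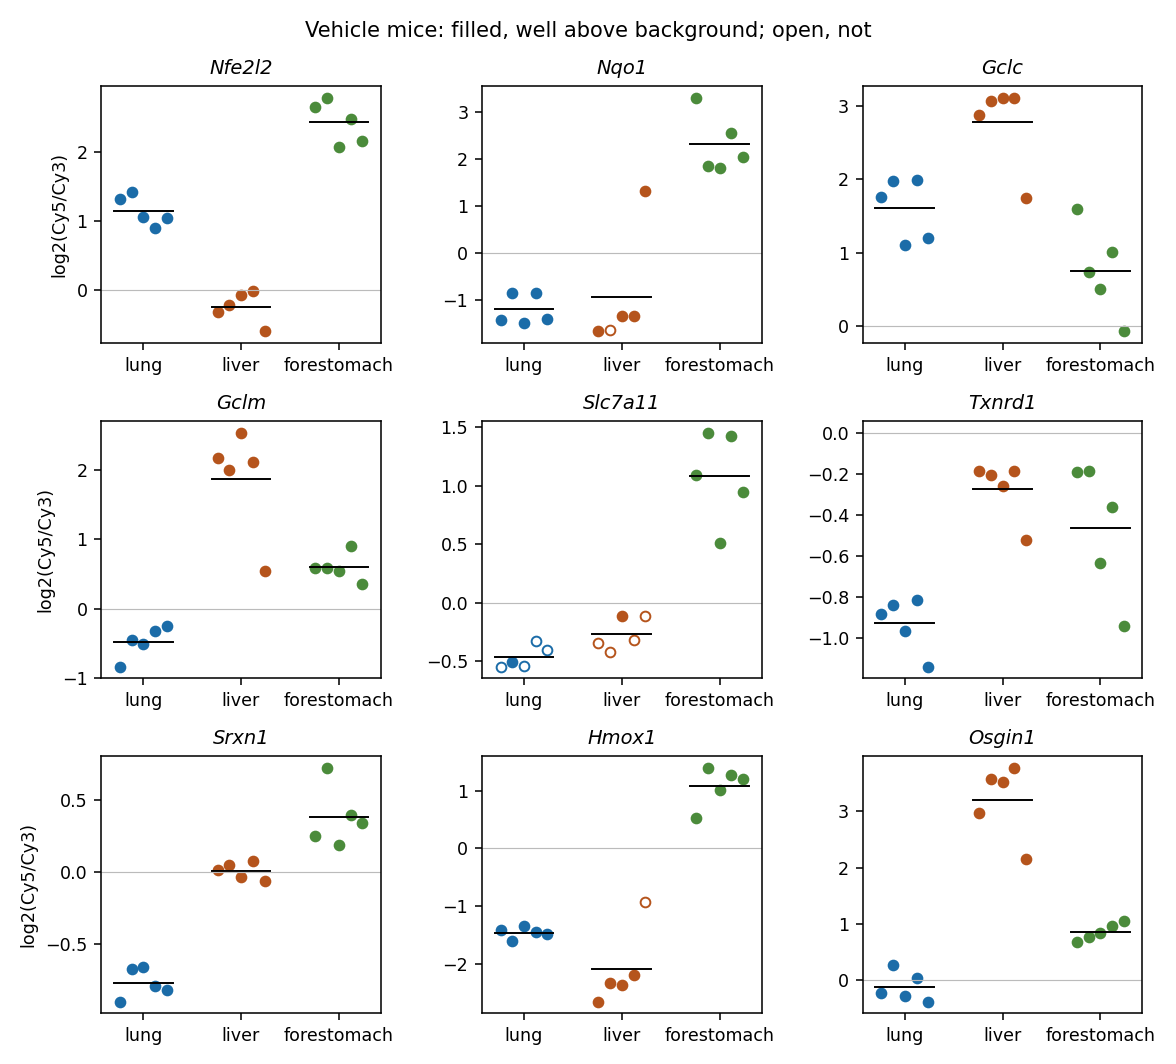
Levels of the 9 genes in vehicle mice as log2(Cy5/Cy3), with mice 1 to 5 from left to right in each tissue and the mean as a line. Nfe2l2, Nqo1, Hmox1 and Slc7a11 were highest in forestomach and Gclc, Gclm and Osgin1 in liver, and liver mouse 5, from the dim slide, stood apart for Nqo1, Gclc, Gclm and Hmox1.

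In lung the dose comparisons asked which genes moved with BbF, each dose against the same 5 vehicle lungs. At the low dose none of the 9 genes was called, where 0.345% of all probes were, and 1 (Gclc, -0.38, adjusted p = 0.511) had an unadjusted p under 0.05. At the medium dose none was called, where 0.469% of all probes were, and none had an unadjusted p under 0.05. At the high dose 1 of 9 was called, Nqo1, where 1.45% of all probes were, and the 8 measured genes had estimates above 0 with a median of 0.22 on the log2 scale, against -0.00385 over all probes. With slide in the fit 6 of the 8 were above 0. With median centring 4 were called (Nqo1, Srxn1, Osgin1 and Nfe2l2), where 6.47% of all probes were, the same 4 by the trend, where 4.87% were, and the median of the 8 was 0.62. By the trend over dose 2 were called, Nqo1 and Srxn1, where 1.23% of all probes were.

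Nqo1 in the 5 high-dose lungs, mice 16 to 20, was at -0.73, 0.50, -1.16, 0.85 and 0.84. The vehicle lungs given above ended at -0.84, so that 4 of the 5 exceeded every vehicle lung and mouse 18 lay within their range. The low-dose lungs were at -0.73, -1.35, -1.57 and -1.16 for mice 6, 8, 9 and 10, and the medium-dose lungs at -1.55, -1.20, -1.22, -1.05 and -0.98 for mice 11 to 15. The group means were -1.19 ± 0.32 (SD, n = 5) with vehicle, -1.20 ± 0.35 (n = 4) at the low, -1.20 ± 0.22 (n = 5) at the medium and 0.06 ± 0.94 (n = 5) at the high dose. The rise at the high dose was 1.25 ± 0.30 (SE) on the log2 scale, or 2.38-fold, with a limma adjusted p of 0.0138. The low and medium means did not exceed the vehicle mean. With any 1 mouse of the 2 groups left out, Nqo1 was still called at the high dose, while its trend was not called without mouse 17, 19 or 20 (adjusted p = 0.0587, 0.0580 and 0.0602).

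Srxn1 followed the same mice. Its high-dose values for mice 16 to 20 were -0.54, 0.06, -0.71, 0.07 and 0.02, against -0.90, -0.67, -0.66, -0.79 and -0.82 with vehicle. All but mouse 18 were again above the vehicle range. The low-dose lungs ranged from -0.91 to -0.79 and the medium-dose lungs from -0.92 to -0.60. The change at the high dose was 0.55 ± 0.13 (SE), which passed in p (adjusted p = 0.0100) but at 1.47-fold stayed under the 1.5-fold limit. The trend, as the fitted difference between dose 0 and 100 mg/kg-bw/day, was 0.59 ± 0.13 or 1.51-fold (adjusted p = 0.00769) and passed both, by a narrow margin in fold.

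Osgin1 and Nfe2l2 had positive estimates that did not pass. Osgin1 was at 0.07, 0.49, 0.17, 0.62 and 0.41 in the high-dose lungs and between -0.39 and 0.27 with vehicle, so that 3 of 5 lay above all vehicle mice. Its change was 0.47 ± 0.15 (SE; adjusted p = 0.0613). Nfe2l2 was at 1.10, 1.59, 1.25, 1.57 and 1.42 against 0.90 to 1.42 with vehicle, a change of 0.24 ± 0.10 (SE) with an adjusted p of 0.223. Mice 17, 19 and 20 had the highest values of the high-dose group for Nqo1, Srxn1, Osgin1 and Nfe2l2 alike.

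The other members had smaller estimates in lung after loess, and these depended on the scaling. The change at the high dose was 0.20 for Gclm (95% interval -0.02 to 0.42), 0.07 for Txnrd1 (-0.08 to 0.22), 0.01 for Gclc (-0.32 to 0.35) and 0.00 for Hmox1 (-0.22 to 0.22). With median centring the same changes were 0.43 for Gclm (adjusted p = 0.0145), 0.53 for Txnrd1 (adjusted p = 0.0230), 0.51 for Gclc (adjusted p = 0.0536) and 0.48 for Hmox1 (adjusted p = 0.0329), all under 1.5-fold. The second Hmox1 probe gave 0.06 (-0.17 to 0.29) after loess.

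**Figure D2:**
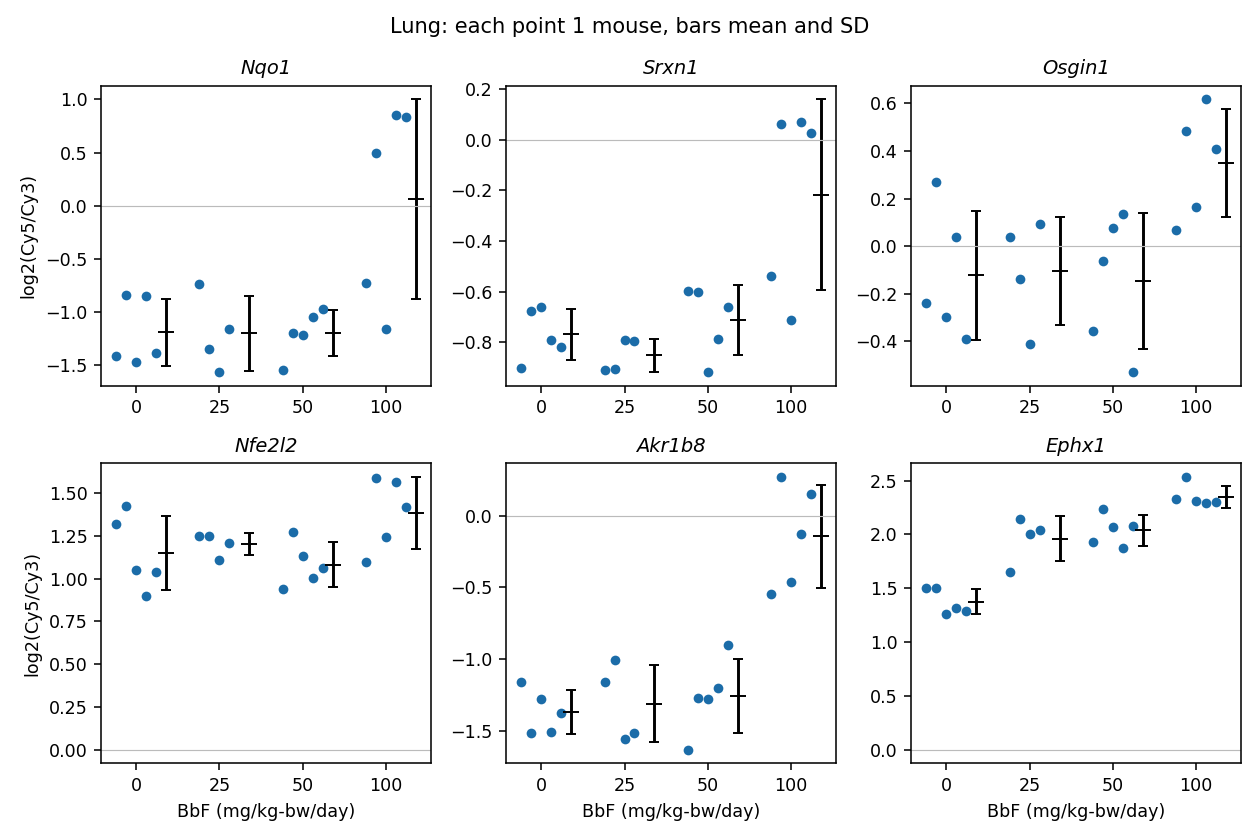
Lung levels as log2(Cy5/Cy3) by dose for 4 of the 9 genes and for Akr1b8 and Ephx1, with each point 1 mouse in the order of its number and the bar the mean with SD (n = 5, low dose n = 4). High-dose Nqo1 and Srxn1 divide into 3 mice above 0 and 2 at or near vehicle level, whereas for Akr1b8 and Ephx1 the high-dose and vehicle points do not overlap.

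The mice with the highest Nqo1 were also those with the highest Cyp1b1. In high-dose lung, Cyp1b1 was at 1.03, 4.95, 0.67, 4.96 and 5.01 for mice 16 to 20, and Cyp1a1 at 7.54, 8.94, 5.99, 9.36 and 9.38. Mice 17, 19 and 20 thus led for both AhR targets and for Nqo1, while mouse 18 was lowest of the group for all 3. Cyp1b1 rose by 4.44 ± 0.68 (SE; adjusted p = 0.000412) at the high dose and Cyp1a1 by 4.47 ± 1.13 (adjusted p = 0.0202). Vehicle mouse 2, at 8.39 for Cyp1a1 and 0.21 for Cyp1b1, had Nqo1 at -0.84. That was the highest of the vehicle lungs, but nearly equal to vehicle mouse 4, whose Cyp1a1 was 2.81. The part of AhR in the Nqo1 values was not tested.

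**Figure D3:**
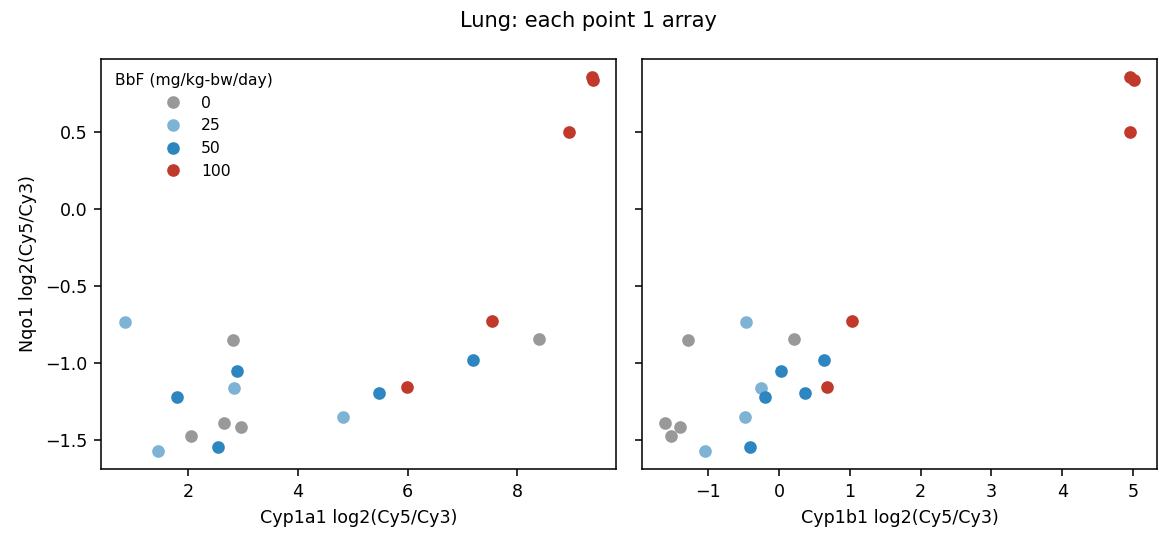
Lung Nqo1 (vertical) beside Cyp1a1 and Cyp1b1 (horizontal) on the same array, all as log2(Cy5/Cy3), with each point 1 of 19 lung arrays coloured by dose. The high-dose mice 17, 19 and 20 have Cyp1b1 near 5 and Nqo1 at 0.50 to 0.85, and all other arrays have Nqo1 at -0.73 or below.

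Markers of other cells and tissues were set beside these values. Of 9 macrophage markers on the array, Marco, a scavenger receptor of alveolar macrophages, rose at the high dose by 1.30 ± 0.35 (SE; adjusted p = 0.0274), from 5.26, 4.02, 4.38, 3.32 and 5.48 with vehicle to 5.30, 5.72, 6.04, 5.88 and 6.03. The other 8 did not pass, and the mean of the 9 ranged from 1.09 to 2.00 with vehicle and from 1.20 to 1.85 at the high dose. None of 6 erythroid markers passed, with their mean between 3.05 and 3.36 with vehicle and between 3.06 and 3.45 at the high dose. Of the 2 liver markers, Apoa2 lay between 0.05 and 0.60 in the vehicle lungs and between 0.65 and 0.99 in the high-dose lungs, with no overlap, a change of 0.505 ± 0.11 (SE; adjusted p = 0.00833) under 1.5-fold. Alb did not move with it, with an estimate of -0.00248 (adjusted p = 0.995), and the mean of both markers ranged from 0.23 to 0.69 with vehicle and from 0.63 to 0.71 at the high dose. The highest Nqo1 of the low-dose lungs (-0.73) was that of mouse 6, the array with forestomach keratins, and Nqo1 is high in forestomach. The part of these markers in the values of Nqo1, Akr1b8 and Ephx1 was not tested.

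Beyond the 9 genes, a list of 48 other genes of the NRF2 pathway was read on the same arrays. At the high dose in lung 2 of 48 were called, both upward, where 1.45% of all probes were called in either direction, and the median was -0.05 with 21 of 48 above 0, against -0.00385 over all probes. Akr1b8, an aldo-keto reductase of lipid aldehydes, was at -0.55, 0.27, -0.46, -0.13 and 0.15 in mice 16 to 20 against -1.16, -1.52, -1.28, -1.51 and -1.38 with vehicle, with no overlap. It rose by 1.23 ± 0.15 (SE; adjusted p = 5.74e-05). Ephx1, the microsomal epoxide hydrolase that acts on arene oxides, was at 2.33, 2.53, 2.31, 2.29 and 2.30 against 1.26 to 1.504 with vehicle, with no overlap and little spread. It rose by 0.98 at the high dose (adjusted p = 1.30e-06), and also at the low dose by 0.59 (adjusted p = 0.00338) and at the medium dose by 0.66 (adjusted p = 0.000582). Ephx1 was therefore called at all 3 doses in lung and was the 1 gene of the 48 called at the low and at the medium dose, where 0.345% and 0.469% of all probes were. At the low dose it passed narrowly, at 0.587 against a limit of 0.585 on the log2 scale. The 48 genes were tested after loess alone, and not with median centring or with mice left out.

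The pathway's other groups stayed uncalled in lung. None of the 14 genes of glutathione use (median -0.13, 5 of 14 above 0), the 9 regulators, Keap1 among them (median -0.05, 4 of 9 above 0), the 7 of iron and haem (median -0.14), the 6 of NADPH supply (median 0.06) or the 3 of the thioredoxin system (median -0.24, none above 0) passed. Keap1, the repressor of NRF2, had an estimate of -0.40, and Gsta1, an alpha class glutathione transferase, one of -0.51. Both lay at the low end of their groups, and neither was called.

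In liver none of the 9 genes was called at the low, medium or high dose or by the trend, where 0%, 0%, 0.00359% and 0.0108% of all probes were. No gene had an unadjusted p under 0.05 at any dose, and by the trend 1 did, Nfe2l2 (0.38, adjusted p = 0.586). At the high dose 6 of the 8 measured genes had estimates above 0, with a median of 0.24 against 0.01 over all probes. With median centring all 8 estimates turned or stayed below 0, from -2.19 for Gclc to -0.25 for Nqo1 with a median of -1.46, so that the direction in liver depends on the scaling; none was called there either. The intervals of Gclm (-2.00 to 0.03), Nqo1 (-0.55 to 1.48), Gclc (-1.51 to 0.34) and Hmox1 (-0.23 to 1.60) were wide and include changes past the limit of a call.

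Gclc, Gclm and Hmox1 separated in liver by slide and not by dose. Gclc lay between 2.68 and 3.31 on the 12 arrays of the first 2 slides and between 1.28 and 2.20 on the 8 arrays of the third, at every dose. Gclm was at 1.63 or above on the first 2 slides and at 0.72 or below on the third, and Hmox1 at -2.15 or below against -1.07 or above. On the third slide Gclm was well above background on 3 of 8 arrays, Hmox1 on 2 and Nqo1 on 1. The high-dose group had 3 of its 5 arrays on that slide and the vehicle group 1 of 5, so the slide moved with the dose, and values within slides are given for that reason.

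Between mice 16 and 17 and the vehicle mice 1 and 2 on the second slide, the high dose differed by 0.68 for Nfe2l2, 0.88 for Nqo1, 0.85 for Osgin1 and 0.16 for Srxn1. On the third slide, 3 high-dose mice against vehicle mouse 5 alone gave 0.54 for Nfe2l2, -1.59 for Nqo1, 1.09 for Osgin1 and 0.13 for Srxn1. Nqo1 thus had opposite signs on the 2 slides. For Gclc, Gclm and Hmox1 the same differences were 0.10, -0.415 and 0.33 on the second slide and -0.13, -0.18 and 0.03 on the third. Their changes were -0.04, -0.37 and 0.14 in that order with slide in the fit. With slide in the fit, Osgin1 was called at the high dose in liver (0.89, adjusted p = 0.0467), where 0.246% of all probes were, and no other of the 9 genes was. Without the third slide it was not called (0.66, adjusted p = 0.276), where 0.749% of all probes were.

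Osgin1 in liver was at 4.50, 3.75, 3.11, 3.61 and 2.98 in mice 16 to 20, which overlapped vehicle (2.15 to 3.78), and at every dose its arrays on the third slide lay below those on the other 2. Its probe was well above background on all liver arrays. Liver mouse 17 stood out for several genes: its Nfe2l2 was 0.84 where the other high-dose livers lay between -0.09 and -0.04, and its Srxn1 was 0.72, its Txnrd1 0.07 and its Nqo1 -0.11, the highest of their high-dose group. Cyp1a1 in that liver was 6.68, beside 5.29 and 5.03 in mice 20 and 19 and 0.24 and 0.03 in mice 16 and 18, so that the 3 mice with high Cyp1b1 in lung were those with high Cyp1a1 in liver.

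**Figure D4:**
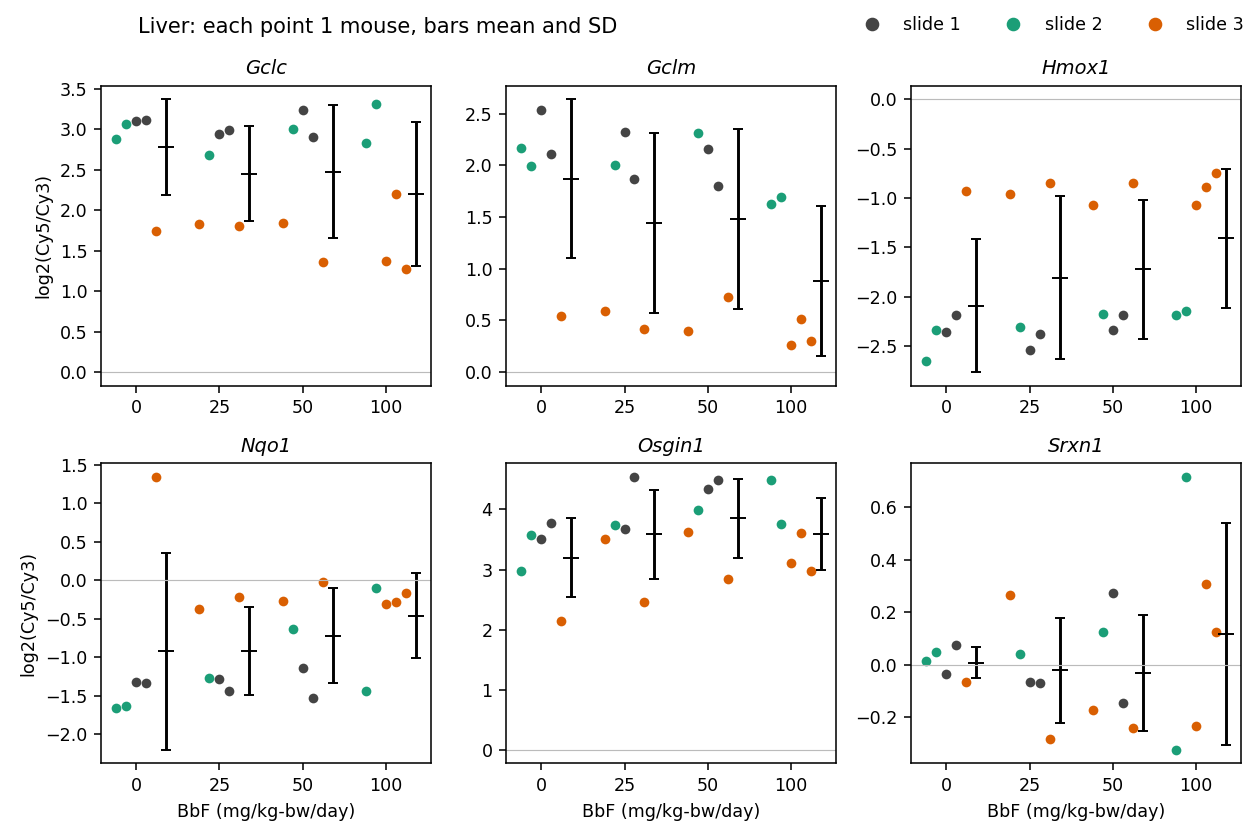
Liver levels as log2(Cy5/Cy3) by dose for 6 of the 9 genes, with each point 1 mouse coloured by slide and the bar the mean with SD (n = 5). Slide 3 is apart from slides 1 and 2 at every dose for Gclc, Gclm, Hmox1 and Osgin1, and not for Srxn1.

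In forestomach, the first tissue to meet a gavaged dose, none of the 9 genes was called at the low, medium or high dose or by the trend, where 0%, 0%, 0.07% and 0.0611% of all probes were. No gene had an unadjusted p under 0.05. At the high dose 8 of 9 estimates were above 0, with a median of 0.10 against -0.00368 over all probes. The largest was that of Nqo1, 0.51 ± 0.40 (SE), with an interval from -0.32 to 1.34.

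Forestomach Nqo1 varied from 1.45 to 3.49, and the groups overlapped. The low-dose mice 6 to 10 were at 3.31, 1.45, 1.88, 3.31 and 2.86, the medium-dose mice 11 to 15 at 3.12, 1.79, 3.29, 3.40 and 2.10, and the high-dose mice 16 to 20 at 3.49, 2.88, 2.49, 2.96 and 2.33. The group means were 2.32 ± 0.63 (SD, n = 5) with vehicle and then 2.56 ± 0.85, 2.74 ± 0.74 and 2.83 ± 0.45 with increasing dose, each above the one before, by less than the SDs. The trend did not pass (0.49 between dose 0 and 100 mg/kg-bw/day, adjusted p = 0.776). Within the 3 slides the high dose exceeded vehicle by 0.42 and 0.60, with 2 arrays of each group, and by 0.51, with 1 array of each. Mice 12 and 15, with the highest Alb, had the lowest Nqo1 of the medium dose and the lowest Txnrd1 of all forestomach arrays (-1.18 and -1.09), and mouse 7, also high in Alb, had the lowest Nqo1 of all. Without mice 7, 12 and 15 still none of the 9 genes was called at any dose or by the trend. What these arrays' Alb contributes was not tested.

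Mouse 20 had the highest forestomach Cyp1a1 (7.33) and the highest Slc7a11 (2.00), but the lowest Gclm (-0.18, not well above background) and the lowest Nqo1 of its group. In forestomach therefore the mouse with most Cyp1a1 was not the mouse with most Nqo1, which was mouse 16 (3.49, with Cyp1a1 at 0.74). Srxn1 in the high-dose forestomach lay between 0.32 and 0.43, inside the vehicle range, with a change of 0.01 (-0.26 to 0.28). Slc7a11, measured in forestomach alone, was at 1.35, 1.56, 1.52, 0.87 and 2.00 in mice 16 to 20 against 1.09, 1.45, 0.51, 1.42 and 0.94 with vehicle, so that 3 of 5 exceeded every vehicle mouse, and its change of 0.37 (-0.09 to 0.84) did not pass (adjusted p = 0.677).

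**Figure D5:**
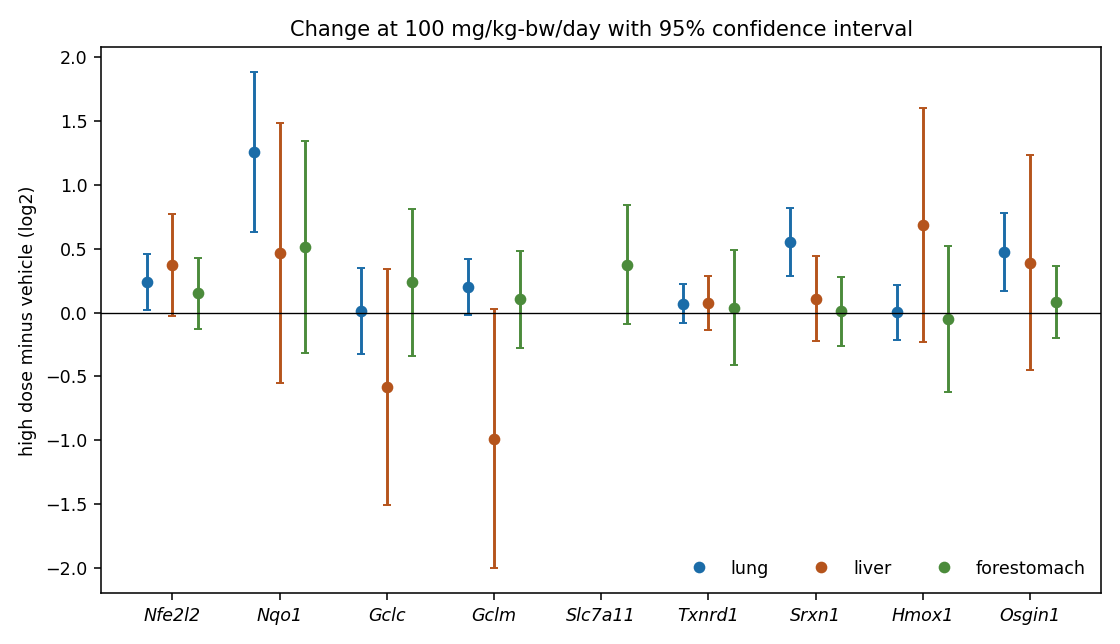
Change of each gene at 100 mg/kg-bw/day against vehicle on the log2 scale, with the limma 95% confidence interval, in lung, liver and forestomach. Only the lung intervals of Nfe2l2, Nqo1, Srxn1 and Osgin1 exclude 0, before any adjustment for the number of probes, and the liver intervals are the widest for Nqo1, Gclc, Gclm, Hmox1 and Osgin1; Slc7a11 is shown for forestomach alone.

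Whether the response was larger in lung was tested by the difference of the high-dose effects. None of the 9 genes was called between lung and liver, where 0.311% of all probes were, between lung and forestomach, where 0.765% were, or between liver and forestomach, where 0.0269% were. Unadjusted p-values under 0.05 were found for 2 genes (Gclm and Srxn1) in the first, 1 (Srxn1) in the second and 1 (Gclm) in the third. For Nqo1 the lung effect exceeded that of liver by 0.79 (95% interval -0.43 to 2.01) and that of forestomach by 0.74 (-0.32 to 1.81). For Srxn1 it exceeded them by 0.44 (0.02 to 0.87; adjusted p = 0.480) and 0.54 (0.16 to 0.92; adjusted p = 0.193). The call of Nqo1 in lung alone does not therefore show that its response was particular to lung. Of the pathway list, Akr1b8 (by 1.71, adjusted p = 5.52e-05) and Ephx1 (by 0.87, adjusted p = 0.0221) had larger effects in lung than in forestomach. Neither was called between lung and liver (0.14, adjusted p = 0.952 for Akr1b8 and 0.51, adjusted p = 0.392 for Ephx1), and none of the 48 genes was. Liver Akr1b8 separated by slide, which limits its value here. On the third slide, with 3 high-dose arrays and 1 vehicle array, it lay between -1.82 and -1.48, never well above background. On the other liver slides it was at -3.23 or below. There the high-dose mice 16 and 17 were at -3.41 and -3.71, and vehicle mice 1 and 2 both at -3.99.

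The vehicle tissues differed in the pathway list as well. Between lung and liver 27 of 48 genes were called, 9 of them higher in lung, where 24.1% of all probes were called. Between lung and forestomach 33 were, 11 of them higher in lung, against 19.8%, and between liver and forestomach 34, 18 of them higher in liver, against 19.3%. Of the 14 genes of glutathione use, 7 were called higher in liver than in forestomach and 4 lower, and of the 6 of NADPH supply 1 was called higher and 4 lower. Gsta3, a glutathione transferase, was lower by 6.31 in forestomach than in liver on the log2 scale, whereas Gpx2, the epithelial glutathione peroxidase, was higher there by 6.15 and G6pdx, which supplies NADPH, by 4.54.

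Last, the pattern of each gene over the 12 group means was matched to other genes. Among 12809 candidates well above background on at least 30 arrays, Pearson's r was highest with Gm10638 for Nfe2l2 (0.996), Plcd3 for Nqo1 (0.989), Ces1g for Gclc (0.989), Cyp2j8 for Gclm (0.995), Mrgprf for Slc7a11 (0.996), Pias4 for Txnrd1 (0.978), Ccdc124 for Srxn1 (0.974), Kdm2b for Hmox1 (0.996) and Brap for Osgin1 (0.995). The 9 genes were left out of the candidates, so their likeness to each other was not examined. These values are a description, since the 12 means differ mainly by tissue, which they share with the slides.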

How the data were processed

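RNA of lung, liver and forestomach (59 arrays) was labelled with Cy5 and hybridized by the authors with Cy3-labelled reference RNA, without dye swaps. The deposited scanner files hold raw spot intensity in both dyes (Feature Extraction 10.7.3.1, array build mm9 per the file headers); a deposited table holds the authors' normalized log2 ratios, which correlated with the values used here at r of 0.968 to 0.999. Median intensities without background correction were normalized within arrays by loess, as in the study's methods, in limma 3.58.1 (R 4.3.3). The study's MAANOVA test was not at hand, so limma's moderated test was used, with all 4 dose groups of a tissue, a line over dose, or 2 tissues in 1 fit. Of 62976 spots, controls were left out and repeats averaged to 55681 probes, of which 26413 were named through RefSeq accessions. The brightest probe stood for a gene, and the number of arrays limits the precision. The genes and lists were chosen with earlier results of these data known.

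Mouse numbers name the same animal in each tissue; deviations of same-numbered arrays from their group means correlated over probes with medians of -0.031 (lung and liver), 0.0337 (lung and forestomach) and 0.0316 (liver and forestomach). Alternatives were median centring, normexp (offset 50, on median signals), the authors' values, a filter on dim probes, slide or mouse as a block, an intensity trend, all probes of a gene, the third liver slide left out and each mouse left out; leaving out forestomach mice 7, 12 and 15 was chosen after seeing the data. The fit was tested on simulated data.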

Additional observations from a re-analysis of the deposited data

Results flagged for a closer look

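Of 120 sets of values (10 probes in 12 groups), 10 held a sample far from the others of its group; chance gives about 1 in 20. Of these, 5 were the vehicle liver of mouse 5, on the third, dim slide: Nqo1 at 1.34 (nearest other mouse -1.32), Hmox1 at -0.93 (nearest -2.19), Gclm at 0.54 (nearest 1.99), Gclc at 1.74 (nearest 2.88) and Txnrd1 at -0.52 (nearest -0.26). In high-dose liver, Nfe2l2 of mouse 17 was high at 0.84 (nearest -0.04) and Nqo1 of mouse 16 low at -1.43 (nearest -0.31). In high-dose lung, mouse 18 was lowest for Hmox1 at -1.89 (nearest -1.45) and for Txnrd1 at -1.02 (nearest -0.85). In medium-dose lung, Gclc of mouse 12 was low at 1.04 (nearest 1.51).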

How the results depend on the processing

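Counts of the 9 genes called moved under few alternatives. With median centring in place of loess, 4 genes were called in lung at the high dose, where 6.47% of all probes were (3600 against 807), and 4 by the trend (Nqo1, Srxn1, Osgin1 and Nfe2l2), where 4.87% were (2714 against 684), 0 between vehicle lung and liver, and 4 between vehicle liver and forestomach; the share of called probes that were higher at the high dose in lung then went from 71.3% to 99%, and in high-dose liver all 8 measured genes were below 0, with Osgin1 at -1.32. Between vehicle lung and forestomach 8 were called with either scaling, Gclc being lost and Txnrd1 gained. By the trend in lung, the authors' values and slide as a block each called 1 (Nqo1), since Srxn1 fell under 1.5-fold. Of all probes 1.23% and 1.3% were called there. With slide as a block, 1 (Osgin1) was called in high-dose liver, where 0.246% of all probes were. It was not called without the third slide, where 0.749% were. With each mouse left out in turn, 1 to 2 genes were called in high-dose lung and 0 to 2 by the lung trend, while Nqo1 at the high dose stayed between 1.06 and 1.56 (adjusted p 0.000809 to 0.0473). Leaving out mouse 17, 19 or 20 took both genes out of the lung trend (adjusted p of Nqo1 0.0587, 0.0580 and 0.0602), and leaving out mouse 6 or 8 took out Srxn1, which fell under 1.5-fold. Left-out mice gave 6 to 7 genes between vehicle lung and liver, 7 to 8 between lung and forestomach and 6 to 7 between liver and forestomach. With mouse as a replicate block the counts were 6, 8 and 7, and 0 genes differed in high-dose effect; the block changed no call. Between vehicle lung and liver the authors' values called 5, where 24.9% of all probes were called. The fit without the third liver slide called 7 there, where 26% of all probes were. Between lung and forestomach the intensity trend called 7, where 19.5% were. The counts for low and medium dose, for forestomach, for the liver trend and for the differences in effect were 0 under every alternative run. Of 2512 values of gene and comparison pairs that no setting called, 209 had the opposite sign. Dim signal limits Slc7a11 in lung and liver and Gclm, Hmox1 and Nqo1 on the third liver slide.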
